A study of Mus musculus with 24 samples.

Results

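The comparison set out here is of the descending colon with the jejunum in germ-free mice, animals that carry no microbiota. It rests on the 6 arrays titled as germ-free descending colon 1 to 3 and germ-free jejunum 1 to 3, out of 24 arrays in the series, and on every probe set except the array's 66 control probe sets. The series holds 8 groups of 3 arrays, 4 gut regions from germ-free and from conventional mice. Each array held total RNA of whole tissue, washed and frozen, so a piece holds epithelium, connective tissue, muscle, nerves and blood cells together. Per the labels the descending colon is the first 2 cm of the last 3 cm of the gut, with the rectum as the remainder, and the jejunum is the small intestine less its first 4 cm and its last 2 cm. Strain, sex and age of the mice are not given in the sources used here. The labels number the arrays within a group and do not say whether equal numbers mark 1 animal. The p-values set each difference against the spread within the 8 groups of all 24 arrays, which may be partly technical. All results are given as labelled, with 3 colon arrays, and again without germ-free descending colon 1. That array was singled out for low Hoxb13 and high Fabp2, 2 region markers, beside the other colon arrays.

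As background, the jejunum is the main site of nutrient uptake. Its villus enterocytes carry digestive enzymes and transporters on a brush border, rebuild absorbed fat into chylomicrons, and turn over glutamine, arginine and nucleotides, while Paneth cells at the crypt base release alpha-defensins and lectins. The descending colon has no villi and, in the mouse, few or no Paneth cells. Its colonocytes exchange salt, water and bicarbonate, respond to mineralocorticoids, and lie under a thick mucus layer above a stout muscle coat. The position of each region along the gut is held by homeobox, GATA, HNF4 and FOXA transcription factors.

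Signals below are the deposited linear intensities in arbitrary units, and each group of 3 values is in the order array 1, 2 and 3. Differences are log2 values, colon minus jejunum, fitted with limma after signals under 21.2 were set to that floor, and given as estimate ± SE. A probe set was called at a Benjamini-Hochberg adjusted p under 0.05 over 9033 probe sets, and folds are on the floored scale, written "at least" where the lower group was at the floor on all its arrays. Levels of different genes are not compared, since each probe set has its own brightness. Median signals were 79.8, 94.0 and 103.7 on colon 1, 2 and 3, against 68.6, 69.2 and 88.4 on jejunum 1, 2 and 3, and 28.0%, 21.2% and 17.5% of probe sets lay at or under the floor in colon, against 27.8%, 26.9% and 21.2% in jejunum. The colon arrays were thus brighter at the low end: the median difference of all tested probe sets was 0.17, and it was 0.33 in the dimmest 25% of probe sets and -0.05 in the brightest 25%. Quantile normalization moved the median of all to 0.04 and equal array medians moved it to -0.11.

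With all arrays limma called 1068 probe sets, 11.8% of those tested, 683 higher in the colon (7.56%) and 385 lower (4.26%). Without germ-free descending colon 1 it called 756, or 8.37%, 447 higher (4.95%) and 309 lower (3.42%). The lists shared 646 probe sets, all in the same direction, which is 60.5% of the calls with all arrays and 85.4% of those without colon 1. The balance of directions followed the scaling: 64.0% of calls were higher in the colon as deposited, 53.7% after quantile normalization (497 higher and 428 lower), and 27.8% with equal array medians (239 higher and 621 lower). Among the 215 called probe sets that differed over 4-fold, 93 were higher and 122 lower, 210 kept call and direction after quantile normalization, 203 kept both with equal medians, and 0 turned round. Very large ones were mostly lower in the colon: 25 probe sets were over 10-fold higher and 49 over 10-fold lower, and 3 were over 100-fold higher and 11 over 100-fold lower.

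Of the 3 colon and 3 jejunum arrays, 30.0% of tested probe sets did not overlap (47% with colon 1 left out), and 1003 of the 1068 called ones were among these. Leaving out single arrays gave 756, 328 and 567 calls without colon 1, 2 and 3, against 242, 417 and 1425 without jejunum 1, 2 and 3. In all, 196 probe sets, 103 of them higher in the colon, were called whichever of the 6 arrays was left out. The shared estimate of spread also drew on 3 libraries of other groups whose region markers opposed their labels, those labelled conventional jejunum 3, conventional rectum 1 and germ-free corpus 3. Without them 1753 probe sets were called, 19.4% of those tested, 12.4% higher and 6.96% lower, with all 1068 among them, and the median SE was 0.277 in place of 0.312. Several genes named below miss the threshold in the fit of all arrays and pass in that fit of 21 libraries, which keeps colon 1. The adjusted p of that fit is then given too. The 3 libraries were set aside for their region markers. The spread of such markers, and of genes that follow them, is thus lower in 21 libraries by construction. For Hoxb13 the SE was 1.41 in all arrays and 0.609 in 21 libraries. Germ-free corpus 3 was close to germ-free colon 3 on several markers. The 2 arrays were at 1399 and 1375 for Hoxb13, 3899 and 3901 for Car4, 3218 and 3255 for Prss2, and 1585 and 1605 for Hba-a1. They were further apart for Tff1, at 542 and 293. These genes were picked after their values were seen, and the relation of the 2 arrays was not tested. Germ-free jejunum 3 held gastric transcripts: Atp4a, the catalytic chain of the pump that acidifies the stomach, was at 133, 115 and 166 in the colon arrays, against 169, 126 and 874 in the jejunum arrays. The 12 gastric gland markers tested summed to 1106, 1179 and 1303 in colon 1, 2 and 3, against 3141, 4069 and 11432 in jejunum 1, 2 and 3. In jejunum 1 and 2 most of the sum was Tff1, at 1297 and 1020, and Tff2, at 1243 and 2597. Atp4b, another chain of the pump, was at 10.1, 5.6 and 401 in jejunum 1, 2 and 3.

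**Figure D1:**
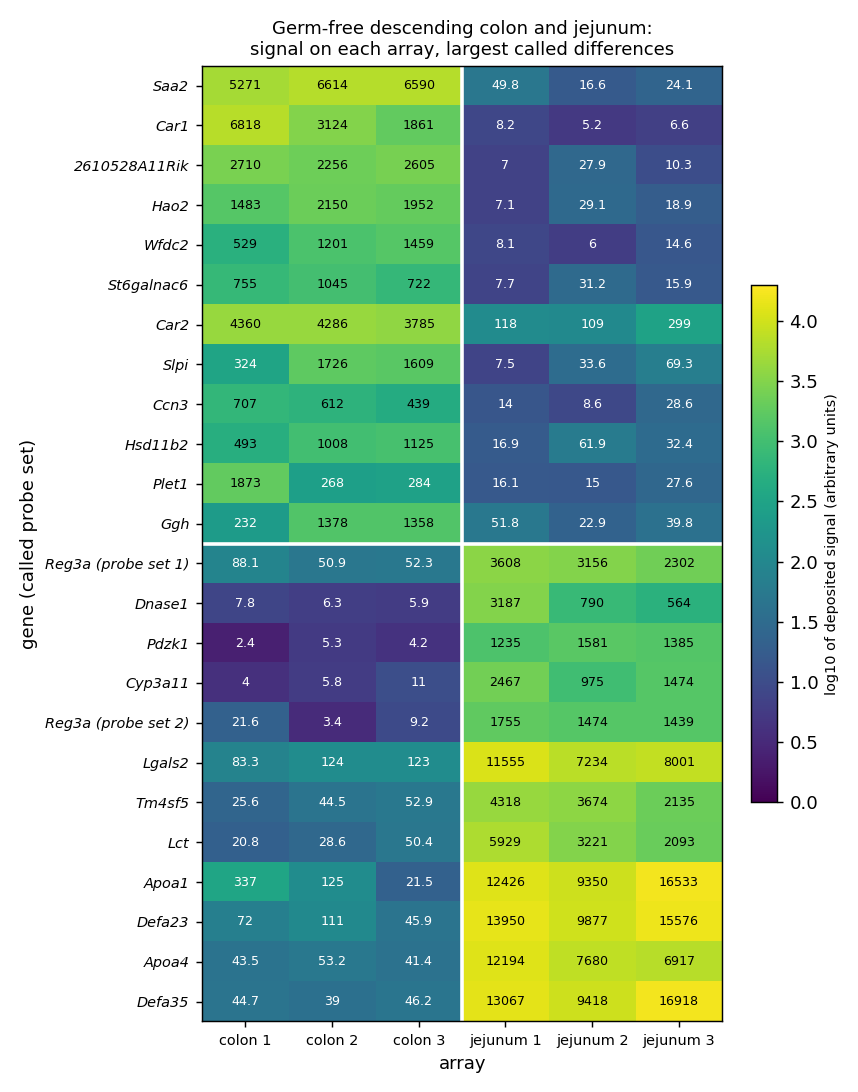
Deposited signal (arbitrary units, printed in each cell and coloured on a log10 scale) of the called probe sets with the largest differences, 12 higher and 12 lower in the colon, with colon arrays 1 to 3 on the left and jejunum arrays 1 to 3 on the right. In each of the 24 rows the 3 colon values lie apart from the 3 jejunum values, and Plet1, Ggh and Slpi show colon 1 apart from colon 2 and 3.

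Genes of fat absorption and chylomicron assembly were lower in the germ-free colon. Of 23 tested members, 9 fell and 3 rose, against 4.75% and 7.97% of all 6650 tested genes, each taken by its brightest probe set, and the median difference was -2.22 against 0.15 for all genes. Without colon 1, 8 fell and 2 rose, against 3.83% and 4.98% of all genes. Apoa4, an apolipoprotein of chylomicrons, had signals of 43.5, 53.2 and 41.4 in the colon arrays, against 12194, 7680.2 and 6917 in the jejunum arrays. No colon array came near any jejunum array, and the level was 189-fold lower in the colon (log2 difference -7.56 ± 1.63; adjusted p = 0.00787; 0.0223 without colon 1). Apoa1, the main protein of high-density lipoprotein, was at 337, 125 and 21.5 in the colon arrays, against 12426, 9350.4 and 16533 in the jejunum arrays. The colon arrays spread widely and all stayed far below the jejunum (129-fold lower; adjusted p = 0.0449; 0.0547 without colon 1). In bulk tissue, here and below, fewer cells of a type and less RNA per cell cannot be told apart.

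The steps that load and re-esterify fat moved the same way. Mttp, which transfers lipid to apolipoprotein B, had signals of 1.2, 1.3 and 2 in the colon arrays, against 1087, 712 and 616 in the jejunum arrays. Fabp1, a cytosolic fatty acid binding protein, was at 4, 2.2 and 2.1 in the colon arrays, against 2383, 458 and 499.8 in the jejunum arrays. All 3 colon values of both lay under the floor, so Mttp was at least 36.9-fold lower (adjusted p = 0.00411) and Fabp1 at least 38.5-fold lower (adjusted p = 0.000804), and the jejunum arrays differed among themselves, with array 1 the highest for Fabp1. Dgat1 and Mogat2, acyltransferases that rebuild triglyceride, were 9.92-fold lower (adjusted p = 0.0112) and 8.73-fold lower (adjusted p = 0.0083). The fatty acid transporters Slc27a4 and Slc27a2 and the acyl-CoA synthetase Acsl5 fell 6.52-fold, 6.43-fold and 8.55-fold. Apob itself, the scaffold of the chylomicron, was at 259, 82.7 and 140.0 in the colon arrays, against 2082, 1254 and 1919 in the jejunum arrays and did not pass (adjusted p = 0.0683; 7.28e-05 in 21 libraries). Fabp2, the intestinal fatty acid binding protein, was at 4005, 1182 and 894 in the colon arrays, against 9089, 7263 and 11375 in the jejunum arrays, with colon 1 between the other colon arrays and the jejunum, and did not pass either (adjusted p = 0.219; 0.0252 in 21 libraries). The members that rose were Acsl4, a synthetase with a preference for arachidonate, Pltp and Apoe, by 3.06-fold, 2.46-fold and 2.61-fold. Apoa4, Mttp, Fabp1, Mogat2, Slc27a4, Slc27a2 and Acsl5 kept the call whichever of the 6 arrays was left out. Dgat1 lost it without colon 2 or jejunum 1. Acsl4 lost it without colon 2 or jejunum 1 or 2. Apoe lost it without colon 1, 2 or 3 or jejunum 1 or 2. Pltp lost it without colon 2 or 3 or jejunum 1, 2 or 3. Apoa1 lost it whichever array was left out.

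Promoters of 5 jejunal genes are shown because they hold a short motif of a factor family of which 1 member was called lower in the colon (Hnf4g and Gata5, described further on with relatives that were not called). Fabp2, among the 5, was itself not called with all arrays. They run from 250 bases before to 50 bases after the start site, from RefSeq on GRCm38.p6, 5′ to 3′ on the gene's strand. Capitals mark CAAAGTNCA, a core read by HNF4, and AGATAA, a core read by GATA factors, on either strand. The motifs were chosen with the values known.
Apoa4, chr9:46240594-46240893, plus strand: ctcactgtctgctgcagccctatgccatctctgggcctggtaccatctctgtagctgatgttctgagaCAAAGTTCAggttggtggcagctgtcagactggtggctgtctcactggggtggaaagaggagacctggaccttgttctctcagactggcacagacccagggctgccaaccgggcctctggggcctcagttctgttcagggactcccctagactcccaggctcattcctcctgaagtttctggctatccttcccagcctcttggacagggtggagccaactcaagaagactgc
Pdzk1, chr3:96829815-96830114, plus strand: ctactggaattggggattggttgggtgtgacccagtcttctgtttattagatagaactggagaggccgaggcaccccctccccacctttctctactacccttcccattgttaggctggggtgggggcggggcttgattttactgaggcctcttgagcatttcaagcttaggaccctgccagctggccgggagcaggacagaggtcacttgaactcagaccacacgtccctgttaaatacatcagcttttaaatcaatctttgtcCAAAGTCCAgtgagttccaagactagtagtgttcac
Cyp3a11, chr5:145879805-145880104, minus strand: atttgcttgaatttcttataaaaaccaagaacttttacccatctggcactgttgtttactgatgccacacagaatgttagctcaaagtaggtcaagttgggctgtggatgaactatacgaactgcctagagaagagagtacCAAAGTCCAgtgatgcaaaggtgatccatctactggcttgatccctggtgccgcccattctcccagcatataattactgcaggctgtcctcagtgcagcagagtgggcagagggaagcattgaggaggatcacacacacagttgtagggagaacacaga
Fabp2, chr3:122894822-122895121, plus strand: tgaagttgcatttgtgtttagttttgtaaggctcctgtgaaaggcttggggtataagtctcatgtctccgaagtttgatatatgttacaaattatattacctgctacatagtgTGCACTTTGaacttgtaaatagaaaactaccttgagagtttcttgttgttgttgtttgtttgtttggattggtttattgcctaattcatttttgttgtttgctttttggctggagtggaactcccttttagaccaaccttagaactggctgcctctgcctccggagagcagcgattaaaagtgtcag
Lct, chr1:128328269-128328568, minus strand: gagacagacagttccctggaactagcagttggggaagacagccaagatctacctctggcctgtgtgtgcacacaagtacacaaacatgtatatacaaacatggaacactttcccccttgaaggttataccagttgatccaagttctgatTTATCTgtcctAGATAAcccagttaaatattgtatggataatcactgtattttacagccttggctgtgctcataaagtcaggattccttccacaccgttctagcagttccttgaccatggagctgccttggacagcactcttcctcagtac
Counted from the start site as base 1, with bases before it negative, the HNF4 motif begins at base -182 in Apoa4, at -109 in Cyp3a11 and, on the antisense strand, at -137 in Fabp2. In Pdzk1, of whose start sites the one with a match is shown, it begins at base 15. Lct holds the GATA motif at base -101 on the antisense and at base -90 on the sense strand. Of the 94 genes called over 4-fold lower in the colon, 81 had a promoter in the table, and 5 of these held CAAAGTNCA (6.17%): Apoa4, Pdzk1, Cyp3a11, Rbp2 and Ptpn22. It was held by 1 of 52 promoters of genes over 4-fold higher (1.92%), by 1.39% of 5325 tested genes and by 1.41% of all 32851 promoters. AGATAA was held by 9 of the 81 (11.1%), by 6 of the 52 (11.5%), by 8% of tested genes and by 11.2% of all promoters. These are matches of letters in a short window, given with no test.

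Brush border enzymes and their scaffold fell in the germ-free colon, with 9 of 18 tested members lower and 0 higher (median difference -1.82), and 8 lower without colon 1. With all arrays that was 50% lower and 0% higher, against 4.75% and 7.97% of all tested genes. Lct, lactase, had signals of 20.8, 28.6 and 50.4 in the colon arrays, against 5929, 3221 and 2093 in the jejunum arrays. All colon values were near the floor, and the jejunum arrays differed among themselves, with array 1 the highest (109-fold lower; adjusted p = 0.0018). Pdzk1, a scaffold that anchors transporters under the apical membrane, was at 2.4, 5.3 and 4.2 in the colon arrays, against 1235, 1581 and 1385 in the jejunum arrays. The colon arrays were all under the floor, so the fall was at least 65.7-fold (adjusted p = 0.00745). Anpep, aminopeptidase N, was at 257, 119 and 107 in the colon arrays, against 6913, 4962 and 5252 in the jejunum arrays, and fell 38.1-fold (adjusted p = 0.0161). Cubn, the receptor for intrinsic factor with vitamin B12, fell 26.5-fold, Ace, angiotensin-converting enzyme, 22.5-fold, and Mme, neprilysin, at least 17.6-fold. Smaller falls were those of Slc9a3r1, the scaffold NHERF1 (2.93-fold), Xpnpep1, an aminopeptidase (4.25-fold), and Ezr, ezrin of the microvillus (1.58-fold). Enpep and Dpp4, further brush border peptidases, had differences of -3.44 ± 1.44 and -1.21 ± 0.43 and were not called (adjusted p = 0.121 and 0.0731; 1.46e-05 and 0.0138 in 21 libraries). Lct, Pdzk1, Ace and Mme kept the call whichever of the 6 arrays was left out. Slc9a3r1 and Xpnpep1 lost it without jejunum 1. Anpep and Cubn lost it without colon 2 or 3 or jejunum 1 or 2. Ezr lost it without colon 1, 2 or 3 or jejunum 1 or 2.

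Transporters for sugars, amino acids and peptides divided between the regions: 6 of 17 tested members fell in the colon and 3 rose, and without colon 1 the counts were 5 and 2. With all arrays that was 35.3% lower and 17.6% higher, against 4.75% and 7.97% of all tested genes. Slc2a2, the glucose transporter GLUT2, was at 4.6, 5.7 and 17.2 in the colon arrays, against 236, 127 and 138 in the jejunum arrays. All colon values lay under the floor (at least 7.57-fold lower; adjusted p = 0.0033). Slc2a1, the transporter GLUT1, showed the reverse, with 397, 403 and 252 in the colon arrays, against 41.9, 85.7 and 20.3 in the jejunum arrays (8.09-fold higher; adjusted p = 0.0101). Slc5a1, the sodium and glucose cotransporter SGLT1, had signals of 629.8, 533 and 388 in the colon arrays, against 2761, 2129 and 1979.5 in the jejunum arrays, with no overlap, and fell 4.47-fold (adjusted p = 0.0456; 0.0675 without colon 1). Slc7a8 and Slc7a7, light chains of amino acid exchangers, fell 12.7-fold (adjusted p = 0.00107) and 9.16-fold (adjusted p = 0.00971), and Slc3a2, their common heavy chain, fell 6.76-fold (adjusted p = 0.00281). Slc1a5 and Slc1a4, carriers of neutral amino acids, rose 2.3-fold and 1.87-fold. Of 10 vitamin A genes tested, 2 fell (20%) and 0 rose, against 4.75% and 7.97% of all tested genes. Rbp2, the enterocyte retinol binding protein, was 11.8-fold lower (adjusted p = 0.00336) and Rdh7, a retinol dehydrogenase, 29.1-fold lower (adjusted p = 0.00362). Slc2a2, Slc2a1, Slc7a8, Slc3a2, Rbp2 and Rdh7 kept the call whichever of the 6 arrays was left out. Slc7a7 lost it without jejunum 1. Slc1a5 lost it without colon 2 or 3 or jejunum 3. Slc1a4 lost it without colon 1 or 2 or jejunum 1 or 2. Slc5a1 lost it whichever array was left out.

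Of 23 tested genes of purine, pyrimidine and urea cycle metabolism 7 fell and 0 rose (median difference -0.64), and without colon 1 5 fell and 1 rose. With all arrays that was 30.4% lower and 0% higher, against 4.75% and 7.97% of all tested genes. Cps1, which makes carbamoyl phosphate for citrulline synthesis, had signals of 95.9, 123 and 96.5 in the colon arrays, against 4891, 3214 and 5225 in the jejunum arrays. Arg2, mitochondrial arginase, had signals of 50.4, 47.3 and 50.9 in the colon arrays, against 3505, 2099 and 1738 in the jejunum arrays. For both the jejunum stood far above all colon arrays (41.6-fold and 47.2-fold lower in the colon; adjusted p = 0.00448 and 0.00459). Oat and Aldh18a1, which join proline, glutamate and ornithine, fell 4.6-fold and 3.54-fold, and Pnp, purine nucleoside phosphorylase, fell 5.65-fold. Glud1, glutamate dehydrogenase, and Odc1, ornithine decarboxylase, fell less (1.98-fold and 1.68-fold). Otc, the next enzyme of citrulline synthesis, was at 253, 119 and 124 in the colon arrays, against 587, 413 and 918 in the jejunum arrays and did not pass (adjusted p = 0.166; 0.000419 in 21 libraries). Ass1, argininosuccinate synthase, was the member called higher without colon 1, by 1.87-fold (adjusted p = 0.0365; 0.0962 with all arrays). Cps1, Arg2 and Oat kept the call whichever of the 6 arrays was left out. Pnp and Glud1 lost it without jejunum 1. Aldh18a1 and Odc1 lost it whichever array was left out.

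Fatty acid oxidation genes were lower in the colon in 7 of 26 cases and higher in 0, and in 6 without colon 1. With all arrays that was 26.9% lower and 0% higher, against 4.75% and 7.97% of all tested genes. The falls were modest next to those of fat absorption. Acaa2, the thiolase of mitochondrial beta-oxidation, had signals of 3079, 1802 and 1630.3 in the colon arrays, against 6363, 5204 and 4634 in the jejunum arrays, without overlap (2.57-fold lower; adjusted p = 0.0127). Acaa1a and Hsd17b4 of the peroxisome, Ehhadh, Hadh, Crat and Pex11a, a factor of peroxisome division, fell between 1.45-fold for Pex11a and 3.04-fold for Acaa1a. Ppara, the fatty acid receptor that controls many of these genes, was at 368, 236 and 191 in the colon arrays, against 800.4, 457 and 445 in the jejunum arrays and fell 2.14-fold (adjusted p = 0.0453; 0.0338 without colon 1). Acaa2 lost the call without colon 2 or 3 or jejunum 1. Acaa1a, Hsd17b4, Ehhadh, Hadh, Pex11a and Ppara lost it without colon 2 or 3 or jejunum 1 or 2. Crat lost it without colon 1, 2 or 3 or jejunum 1 or 2.

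Xenobiotic enzymes fell in 11 of 52 cases and rose in 3, and without colon 1 the counts were 9 and 1. With all arrays that was 21.2% lower and 5.77% higher, against 4.75% and 7.97% of all tested genes. Cyp3a11, the main drug-oxidising cytochrome of mouse intestine, was at 4, 5.8 and 11 in the colon arrays, against 2467, 975 and 1474 in the jejunum arrays. The colon arrays were all under the floor and the jejunum arrays differed over 2-fold among themselves (at least 71.9-fold lower; adjusted p = 0.00822). Its probe set can also bind RNA of neighbouring Cyp3a genes. Cyp2b10 and Cyp3a25 fell 8.96-fold and 9.2-fold, the flavin monooxygenase Fmo5 11.7-fold, and the epoxide hydrolase Ephx2 4.51-fold. Sult1a1, a sulfotransferase of phenols, was the opposite, at 505, 351 and 351 in the colon arrays, against 4.1, 6.1 and 5.1 in the jejunum arrays. It was at least 18.7-fold higher in the colon (adjusted p = 0.0125), and Cyp2d10 was at least 17.2-fold higher (adjusted p = 0.0494; 0.067 without colon 1). Tpmt, thiopurine methyltransferase, rose 3.19-fold. Among 19 genes of bile acid transport and nuclear receptors 4 fell and 2 rose, and 3 fell and 0 rose without colon 1. With all arrays that was 21.1% lower and 10.5% higher, against 4.75% and 7.97% of all tested genes. Abcc2, an apical exporter of conjugates, fell 5.96-fold (adjusted p = 0.00396). Fgf15, the hormone that signals bile acid uptake to the liver, was at 4.7, 5.4 and 7.3 in the colon arrays, against 11.9, 284 and 178 in the jejunum arrays, with jejunum 1 under the floor like the colon arrays (adjusted p = 0.0369). Cyp3a11 and Abcc2 kept the call whichever of the 6 arrays was left out. Cyp2b10 and Sult1a1 lost it without jejunum 1. Ephx2 lost it without colon 2 or jejunum 1. Tpmt lost it without colon 1 or jejunum 2. Fmo5 lost it without colon 2 or 3 or jejunum 1. Cyp3a25 lost it without colon 1, 2 or 3 or jejunum 1 or 2. Fgf15 lost it without colon 1, 2 or 3 or jejunum 2 or 3. Cyp2d10 lost it whichever array was left out.

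The list of Paneth cell and antimicrobial products went both ways, with 5 of 20 tested members higher in the colon and 3 lower, and 3 higher and 2 lower without colon 1. With all arrays that was 25% higher and 15% lower, against 7.97% and 4.75% of all tested genes. Those lower with all arrays were Reg3a, Itln1 and Lyz2, and those higher were Saa2, Saa3, Wfdc2, Slpi and Dmbt1. The counts leave out Defa35 and Defa23, which were not on the list and are named for their large differences. Both are alpha-defensins, microbicidal peptides of Paneth cells. The probe set named for Defa35 had signals of 44.7, 39 and 46.2 in the colon arrays, against 13067, 9418 and 16918 in the jejunum arrays, and that named for Defa23 72, 111 and 45.9 in the colon arrays, against 13949.5, 9877 and 15576 in the jejunum arrays. No colon array came near any jejunum array on either probe set (296-fold and 180.0-fold lower; adjusted p = 0.00373 and 0.00745). The defensin genes are close copies, so each probe set can bind RNA of other members. Reg3a, a bactericidal lectin, was at 88.1, 50.9 and 52.3 in the colon arrays, against 3608, 3156 and 2302 in the jejunum arrays on its brighter probe set (48.2-fold lower; adjusted p = 0.00837), and its second probe set fell 72.6-fold (adjusted p = 0.00252). Itln1, intelectin, was at 329.6, 131 and 154 in the colon arrays, against 10409, 6462 and 6226 in the jejunum arrays and fell 39.8-fold (adjusted p = 0.0465; 0.0675 without colon 1). Lyz2, a lysozyme of macrophages and other cells, fell 4.53-fold (adjusted p = 0.0371; 0.129 without colon 1).

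Mmp7, the protease that activates defensins in the mouse, had signals of 344, 9.7 and 13.5 in the colon arrays, against 2442, 1371 and 851 in the jejunum arrays. Colon 1 lay well above colon 2 and 3, which were under the floor, and the fall missed the threshold with all arrays (adjusted p = 0.0508). It passed without colon 1 (at least 66.9-fold lower; adjusted p = 0.0301) and, with colon 1 kept, in 21 libraries (adjusted p = 9.68e-05). Reg3b was at 3638, 417 and 303 in the colon arrays, against 4669, 5734 and 6054 in the jejunum arrays, with colon 1 near the jejunum arrays, and did not pass with colon 1 or without it (adjusted p = 0.151 and 0.0674), but passed in 21 libraries (adjusted p = 0.0344). Defa35, Defa23 and Reg3a kept the call whichever of the 6 arrays was left out. Itln1 and Lyz2 lost it whichever array was left out.

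The antimicrobial products of the colon were other genes. Saa2, a serum amyloid A apolipoprotein that the gut epithelium also makes, was at 5271, 6614 and 6590.0 in the colon arrays, against 49.8, 16.6 and 24.1 in the jejunum arrays on its brighter probe set. Every colon value was far above every jejunum value (208-fold higher; adjusted p = 0.00174; 0.00827 without colon 1). Its second probe set was at 329, 573 and 736 in the colon arrays, against 35.3, 43.3 and 31.5 in the jejunum arrays and rose 14.2-fold, and since serum amyloid A genes are near copies the brighter probe set can bind RNA of others. Wfdc2 and Slpi are secreted proteins of the whey acidic protein family. Wfdc2 was at 529, 1201 and 1459 in the colon arrays, against 8.1, 6 and 14.6 in the jejunum arrays, and Slpi at 324, 1726 and 1609 in the colon arrays, against 7.5, 33.6 and 69.3 in the jejunum arrays. In both the jejunum was near or under the floor and colon 1 was the lowest colon array, without overlap (at least 46-fold higher, adjusted p = 0.016; 26.3-fold higher, adjusted p = 0.0288). Dmbt1, a mucosal scavenger protein, rose 4.49-fold (adjusted p = 0.018; 0.0563 without colon 1), and Saa3 at least 2.54-fold from a jejunum under the floor. Saa2 kept the call whichever of the 6 arrays was left out. Wfdc2 and Slpi lost it without colon 2 or 3 or jejunum 1 or 2. Dmbt1 lost it without colon 1 or 2 or jejunum 1 or 2. Saa3 lost it whichever array was left out.

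Ion and water transport genes were higher in the colon in 8 of 36 tested cases and lower in 4, and in 4 and 2 without colon 1. With all arrays that was 22.2% higher and 11.1% lower, against 7.97% and 4.75% of all tested genes (4.98% and 3.83% without colon 1). Carbonic anhydrases, which supply bicarbonate and protons for salt exchange, led the group. Car1 had signals of 6818, 3124 and 1861 in the colon arrays, against 8.2, 5.2 and 6.6 in the jejunum arrays. Its jejunum values were all under the floor, and colon 1 was the highest of the colon arrays (at least 161-fold higher; adjusted p = 0.0138; 0.0445 without colon 1). Car2 was at 4360.4, 4286 and 3785 in the colon arrays, against 118, 109 and 299 in the jejunum arrays, with colon arrays close together (26.4-fold higher; adjusted p = 0.0226; 0.0539 without colon 1). Hsd11b2, which inactivates glucocorticoids and so leaves the mineralocorticoid receptor to aldosterone, was at 493, 1008 and 1125 in the colon arrays, against 16.9, 61.9 and 32.4 in the jejunum arrays. Colon 1 was the lowest colon array and still far above the jejunum (23.6-fold higher; adjusted p = 0.0248). Aqp4, a basolateral water channel, was at 1463, 2187 and 1875 in the colon arrays, against 157, 76.5 and 70.9 in the jejunum arrays (19.2-fold higher; adjusted p = 0.0317; 0.0578 without colon 1).

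Slc26a2, a sulfate transporter, rose 7.82-fold (adjusted p = 0.0149), and Kcnma1, the large-conductance potassium channel, rose 2.26-fold, with its 3 colon values within a narrow range at 170.4, 164 and 170.2 and the jejunum at 67.4, 69.6 and 87.7 (adjusted p = 0.00293). Slc12a2, the basolateral sodium, potassium and chloride cotransporter, rose 2.05-fold. Members that fell were Guca2b, uroguanylin, at 540.1, 324 and 264 in the colon arrays, against 6362, 5263 and 3814 in the jejunum arrays (14-fold; adjusted p = 0.00943), the water channels Aqp1 (6.2-fold) and Aqp7 (4.33-fold), and the phosphate transporter Slc34a2 (8.34-fold). Aqp8, a water channel of surface colonocytes, was at 233, 1477 and 1159.8 in the colon arrays, against 53.8, 29.8 and 66.7 in the jejunum arrays, with colon 1 nearer to the jejunum, and did not pass with colon 1 or without it (adjusted p = 0.0637 and 0.0542), but passed in 21 libraries (adjusted p = 2.62e-05). Kcnma1 kept the call whichever of the 6 arrays was left out. Guca2b lost it without jejunum 1. Car1 and Aqp1 lost it without colon 2 or jejunum 1. Aqp7 lost it without colon 1 or 3 or jejunum 2. Slc26a2 lost it without colon 2 or jejunum 1 or 2. Hsd11b2 lost it without colon 2 or 3 or jejunum 1 or 2. Slc12a2 lost it without colon 1 or 2 or jejunum 1 or 2. Car2 lost it without colon 1, 2 or 3 or jejunum 1 or 2. Aqp4 and Slc34a2 lost it whichever array was left out.

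Among the largest differences were genes of other functions. Hao2, a peroxisomal oxidase of hydroxy acids, had signals of 1483, 2149.8 and 1952 in the colon arrays, against 7.1, 29.1 and 18.9 in the jejunum arrays. All 3 colon values were far above every jejunum value (78.1-fold higher; adjusted p = 0.0112). The transcript 2610528A11Rik, which encodes a secreted colonic peptide, was at 2709.6, 2256 and 2605 in the colon arrays, against 7, 27.9 and 10.3 in the jejunum arrays (108-fold higher; adjusted p = 0.0101). St6galnac6, a sialyltransferase, was at 755, 1045 and 722 in the colon arrays, against 7.7, 31.2 and 15.9 in the jejunum arrays (34.4-fold higher; adjusted p = 0.0359). Ccn3, a matricellular protein, rose 24.5-fold and Tfcp2l1, a transcription factor, 16.8-fold, with signals of 1429, 1383 and 1409 in the colon arrays, against 79.1, 96.1 and 77.5 in the jejunum arrays for the last. Its 3 colon arrays agreed closely, colon 1 included. Ggh, which trims folate polyglutamates, was at 232, 1378 and 1358 in the colon arrays, against 51.8, 22.9 and 39.8 in the jejunum arrays, and Plet1, a surface protein of epithelial progenitors, at 1873, 268 and 284 in the colon arrays, against 16.1, 15 and 27.6 in the jejunum arrays. Colon 1 was the lowest of the colon arrays for Ggh and the highest for Plet1 (21-fold and 22.6-fold higher; adjusted p = 0.0182 and 0.00971; 0.0185 and 0.0422 without colon 1).

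Among the falls, Tm4sf5, a 4-span membrane protein, had signals of 25.6, 44.5 and 52.9 in the colon arrays, against 4318, 3674 and 2135 in the jejunum arrays, and Lgals2, galectin 2, 83.3, 124 and 123 in the colon arrays, against 11555, 7234 and 8001 in the jejunum arrays. Dnase1, the secreted deoxyribonuclease, was at 7.8, 6.3 and 5.9 in the colon arrays, against 3187, 789.7 and 564 in the jejunum arrays, with the colon under the floor and jejunum 1 well above jejunum 2 and 3. No array of a group overlapped the other group (82.5-fold, 80.7-fold and at least 53-fold lower; adjusted p = 0.00494, 0.0178 and 0.00438). Anxa3, an annexin, and Tgm3, a transglutaminase of epithelia, came among the largest rises when colon 1 was left out. Anxa3 was at 202, 582 and 493 in the colon arrays, against 21.1, 29.8 and 41.6 in the jejunum arrays (18-fold higher; adjusted p = 0.0166 without colon 1). Tgm3 was at 70.2, 826 and 1014 in the colon arrays, against 17.2, 3 and 6 in the jejunum arrays and missed the threshold with all arrays (adjusted p = 0.0679). It passed without colon 1 (at least 43.2-fold higher; adjusted p = 0.0388) and, with colon 1 kept, in 21 libraries (adjusted p = 0.000128). 2610528A11Rik, Plet1, Tm4sf5 and Dnase1 kept the call whichever of the 6 arrays was left out. Hao2 and Tfcp2l1 lost it without jejunum 1. Anxa3 lost it without colon 2 or jejunum 1. Lgals2 lost it without colon 2 or jejunum 1 or 2. Ggh lost it without colon 2 or 3 or jejunum 1 or 2. Ccn3 lost it without colon 1, 2 or 3 or jejunum 1 or 2. St6galnac6 lost it whichever array was left out.

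**Figure D2:**
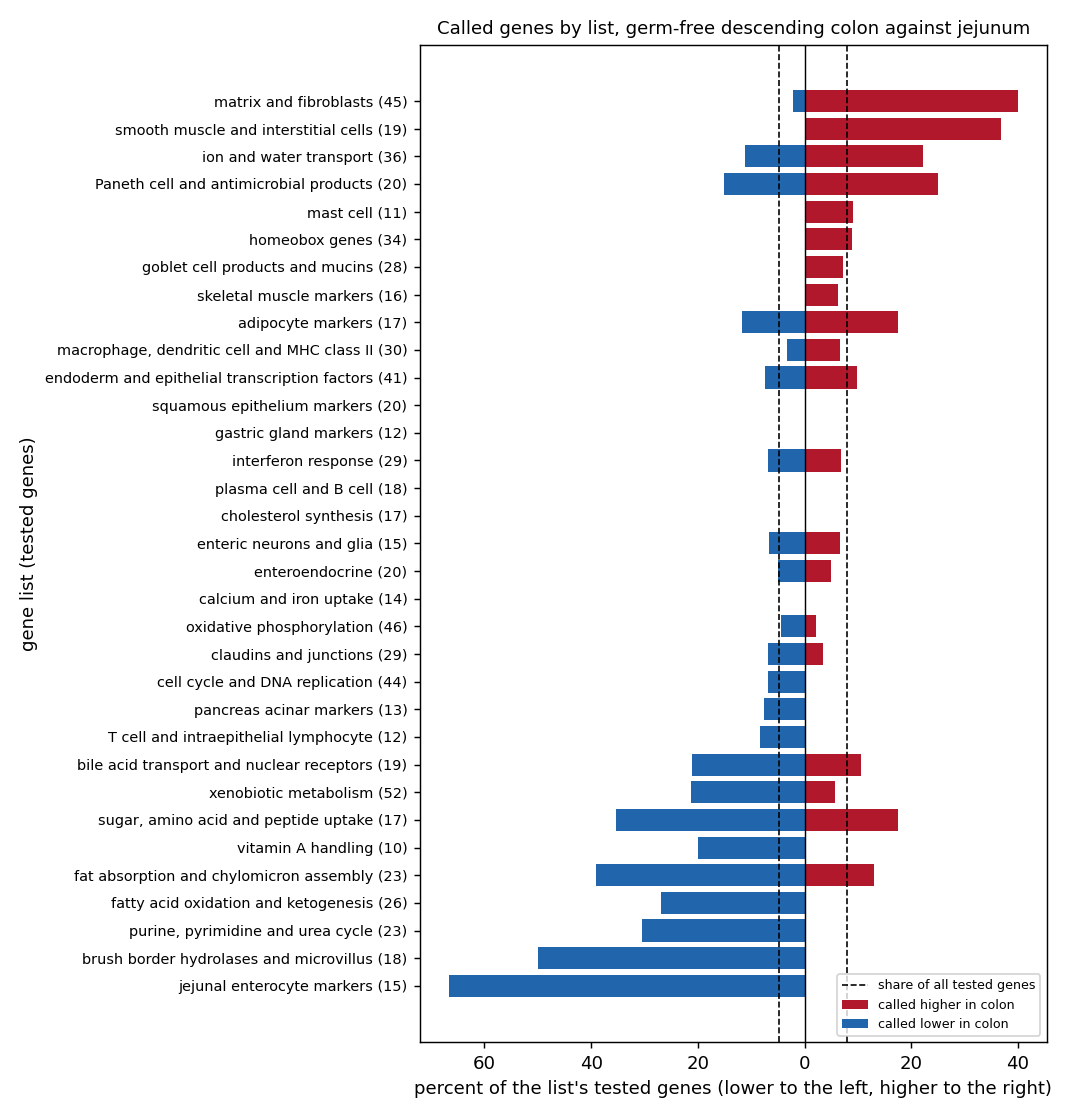
Share of each list's tested genes (horizontal axis, percent; number tested in brackets) called higher in the colon to the right in red and lower to the left in blue, for lists with at least 10 tested genes. The dashed lines mark 7.97% higher and 4.75% lower over all 6650 tested genes; jejunal enterocyte markers reach 66.7% lower and matrix genes 40% higher.

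Of 34 homeobox genes tested 3 rose and 0 fell, or 8.82% higher, near the 7.97% of all tested genes, and 2 rose without colon 1. A positive difference was held by 28 of the 34, against 4070 of all 6650 tested genes. Hoxa10 was at 58.1, 96 and 82 in the colon arrays, against 1.3, 0.9 and 2.2 in the jejunum arrays and Hoxa11 at 53.1, 68.2 and 85.2 in the colon arrays, against 25.7, 1.7 and 20.3 in the jejunum arrays. The colon values of both were low but all above the jejunum arrays, which were at or near the floor (at least 3.63-fold higher, adjusted p = 0.0282; 2.99-fold higher, adjusted p = 0.0105). Satb1, a chromatin organiser, was the third to pass (2.86-fold higher; adjusted p = 0.0302). Hoxb13, a gene of the hindgut, was at 112, 1082 and 1375 in the colon arrays, against 43.2, 30.4 and 55.7 in the jejunum arrays, and did not pass with colon 1 or without it (adjusted p = 0.0897 and 0.0506; 0.000233 in 21 libraries). Hoxa13 was at 75, 137 and 76.6 in the colon arrays, against 6.2, 22.8 and 7.6 in the jejunum arrays, with colon 1 level with colon 3, and did not pass either (adjusted p = 0.0583 and 0.0795; 4.59e-06 in 21 libraries). Without the 3 libraries of other groups 10 homeobox genes rose and 0 fell, against 878 and 511 of all 6650 tested genes in that fit.

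Of 41 endoderm and epithelial factors 4 rose and 3 fell (9.76% and 7.32%, against 7.97% and 4.75% of all tested genes). Foxa2, a forkhead factor of endoderm, was at 178, 274 and 413 in the colon arrays, against 43.5, 24.5 and 31.7 in the jejunum arrays and Foxa1, its relative, at 629.5, 548 and 434 in the colon arrays, against 119.5, 144 and 199.7 in the jejunum arrays. Both were higher on every colon array (8.41-fold and 3.52-fold; adjusted p = 0.0169 and 0.00557). Ehf and Klf4, factors of epithelial differentiation, rose 2.93-fold and 1.63-fold. Gata5 was at 26, 12.1 and 39.8 in the colon arrays, against 215, 289.8 and 232 in the jejunum arrays and Hnf4g, a nuclear receptor of villus enterocytes, at 109.5, 70.5 and 40.1 in the colon arrays, against 421, 232 and 449 in the jejunum arrays. The colon values of both were low on all 3 arrays (8.7-fold and 5.21-fold lower; adjusted p = 0.0124 and 0.0172). Tbx3, a T-box factor, fell 5.14-fold (adjusted p = 0.0343). Their relatives, picked after their values were seen, stood otherwise: Hnf4a was at 364, 458 and 372 in the colon arrays, against 409.8, 287 and 278 in the jejunum arrays, and Gata6 at 294, 357 and 340.0 in the colon arrays, against 365, 255 and 326 in the jejunum arrays, with overlapping arrays (adjusted p = 0.775 and 0.878). Gata4 had a difference of -1.02 ± 0.39 and was not called (adjusted p = 0.0958; 0.0314 in 21 libraries). Hoxa11 and Foxa1 kept the call whichever of the 6 arrays was left out. Gata5 lost it without colon 2. Hnf4g lost it without colon 2 or 3 or jejunum 1. Hoxa10, Foxa2 and Klf4 lost it without colon 2 or 3 or jejunum 1 or 2. Ehf lost it without colon 1 or 2 or jejunum 1 or 2. Satb1 lost it without colon 1, 2 or 3 or jejunum 1 or 2. Tbx3 lost it without colon 2 or 3 or jejunum 1, 2 or 3.

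Matrix and fibroblast genes were higher in the colon more often than lower. Of 45 matrix and fibroblast genes 18 rose and 1 fell, 11 and 1 without colon 1, with a median difference of 0.76. With all arrays that was 40% higher and 2.22% lower, against 7.97% and 4.75% of all tested genes. With equal array medians 8 rose and 1 fell, against 187 and 503 of all 6650 tested genes under that scaling. Postn, periostin of connective tissue, had signals of 941, 1162 and 915 in the colon arrays, against 70.1, 104 and 240.2 in the jejunum arrays, and Col5a2, a fibrillar collagen, 415, 514 and 398 in the colon arrays, against 46.5, 74.2 and 86.1 in the jejunum arrays. Each was higher on every colon array (8.3-fold and 6.58-fold; adjusted p = 0.00728 and 0.00293). Col3a1, Col1a2 and Col1a1, the common fibrillar collagens, rose 3.5-fold, 3.04-fold and 2.98-fold, Lama3, a laminin chain of epithelial basement membrane, 4.13-fold, and Lum and Sparc 2.51-fold and 2.53-fold. Fbln1, fibulin 1, went the other way, at 513, 633 and 790.5 in the colon arrays, against 2022, 1627 and 1217 in the jejunum arrays (2.5-fold lower; adjusted p = 0.0032). The summed signal of the list was 18859.8, 22489 and 20283 in colon 1, 2 and 3, against 11332, 11717 and 12434 in jejunum 1, 2 and 3. Postn, Col5a2, Col3a1 and Fbln1 kept the call whichever of the 6 arrays was left out. Col1a1 lost it without jejunum 1. Col1a2 and Sparc lost it without colon 2 or jejunum 1. Lama3 lost it without colon 2 or 3 or jejunum 1. Lum lost it without colon 2 or jejunum 1 or 2.

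All 19 tested genes of smooth muscle and interstitial cells had a positive difference, against 4070 of all 6650 tested genes. Of the 19, 7 were called higher and 0 lower, and 2 were called higher without colon 1. With all arrays that was 36.8% higher and 0% lower, against 7.97% and 4.75% of all tested genes. With equal array medians 1 was called higher, against 187 of all 6650 tested genes under that scaling. The median difference of the list was then 0.63 in place of 0.92, and that of all genes -0.12 in place of 0.15. Tagln, Cnn1 and Myh11, proteins of the contractile apparatus, rose 2.76-fold, 2.92-fold and 2.24-fold. Tagln had signals of 3064, 3244 and 3640.4 in the colon arrays, against 836, 1570.3 and 1308 in the jejunum arrays, without overlap and with jejunum 1 the lowest array. Kit, the receptor of interstitial pacemaker cells and of mast cells, was at 463, 281 and 231 in the colon arrays, against 105, 122 and 106 in the jejunum arrays (2.81-fold higher; adjusted p = 0.00936; 0.0402 without colon 1). Vcl, vinculin, Cnn2 and Actg2, the enteric smooth muscle actin, rose 1.8-fold, 1.73-fold and 2.15-fold. The list summed to 29336, 25345 and 26936 in colon 1, 2 and 3, against 11098, 18318 and 16557 in jejunum 1, 2 and 3, so that jejunum 1 was the poorest piece in these transcripts. Skeletal muscle markers summed to 2155, 4361 and 4390.4 in colon 1, 2 and 3, against 1639.6, 1459 and 2122 in jejunum 1, 2 and 3, with 1 of 16 called, Car3, which adipocytes also express. Much of the sums of colon 2 and 3 was Tnni1, at 1347.3 and 1367.6, and Eno3, at 1121.1 and 1122.4. In jejunum Tnni1 was at 150.8, 126.1 and 136.3 and Eno3 at 231.8, 284.5 and 186.2, and colon 1 lay nearer to these. Ckm overlapped, at 42.7, 69.6 and 64.9 in colon, against 71.3, 16.4 and 42.4 in jejunum, and so did Acta1. The sums thus do not show skeletal muscle in colon 2 and 3. The part of muscle content in the other differences was not tested. Kit kept the call whichever of the 6 arrays was left out. Actg2 and Car3 lost it without colon 1, 2 or 3 or jejunum 1. Tagln, Cnn1, Myh11 and Vcl lost it without colon 1, 2 or 3 or jejunum 1 or 2. Cnn2 lost it without colon 2 or 3 or jejunum 1, 2 or 3.

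Hormone, nerve and dividing-cell genes were called at shares of 5%, 6.67% and 0% higher and 5%, 6.67% and 6.82% lower, against 7.97% and 4.75% of all tested genes. Of 20 enteroendocrine genes 1 rose and 1 fell. Gip, the incretin of the upper small intestine, had signals of 23, 18.8 and 15.6 in the colon arrays, against 1115, 712 and 538 in the jejunum arrays, and the colon arrays were at or near the floor (34.6-fold lower; adjusted p = 0.00401; 0.0141 without colon 1). Scg3, a granule protein, rose 2.46-fold (adjusted p = 0.0361). Gcg, the precursor of the glucagon-like peptides, was at 457, 144 and 129.5 in the colon arrays, against 90.3, 72.8 and 67.3 in the jejunum arrays and did not pass (adjusted p = 0.0733; 0.0281 in 21 libraries), with colon 1 the highest array. Of 15 neuron and glia genes Penk, proenkephalin, rose 2.41-fold and Npy, neuropeptide Y, fell 2.63-fold, and neither passed without colon 1 (adjusted p = 0.0658 and 0.0949). Of 44 cell cycle genes 3 fell and 0 rose, with 35 differences negative, against 2547 negative of all 6650 tested genes. Those called were Mcm2, Mcm5 and Mcm7, subunits of the replicative helicase, lower by 1.89-fold, 2.14-fold and 1.8-fold. All 3 passed without colon 1 as well. Gip kept the call whichever of the 6 arrays was left out. Mcm2 lost it without colon 2 or 3 or jejunum 1. Mcm7 lost it without colon 2 or jejunum 1 or 2. Scg3 and Mcm5 lost it without colon 2 or 3 or jejunum 1 or 2. Penk and Npy lost it without colon 1, 2 or 3 or jejunum 1 or 2.

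Goblet cell products were called higher at a share near that of all genes, with 2 of 28 higher and 0 lower, and 1 rose without colon 1. With all arrays that was 7.14% higher and 0% lower, against 7.97% and 4.75% of all tested genes. St6gal1, a sialyltransferase, was at 324, 504 and 395 in the colon arrays, against 38.1, 35.8 and 48.8 in the jejunum arrays (9.9-fold higher; adjusted p = 0.00293), and Papss2, which activates sulfate for mucin sulfation, rose 2.67-fold (adjusted p = 0.0243; 0.0935 without colon 1). Of 29 claudin and junction genes Cldn8 rose 5.54-fold, and Cldn4 and Gjb1 fell 2.6-fold and 1.67-fold, none of them passing without colon 1 (adjusted p = 0.0694, 0.0875 and 0.0699). No gene was called among 14 of calcium and iron uptake, 17 of cholesterol synthesis, 20 squamous epithelium markers, 12 gastric markers, 3 red cell markers and 18 of plasma and B cells, with all arrays or without colon 1. In 21 libraries 2 gastric markers fell and 1 plasma or B cell gene rose, against 511 lower and 878 higher of all 6650 tested genes. Of 46 oxidative phosphorylation genes 1 rose (2.17%) and 2 fell (4.35%), and the claudin and junction list had 3.45% higher and 6.9% lower. St6gal1 kept the call whichever of the 6 arrays was left out. Papss2 lost it without colon 1 or 2 or jejunum 1 or 2. Cldn8, Cldn4 and Gjb1 lost it without colon 1, 2 or 3 or jejunum 1 or 2.

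Immune lists had between 0% and 9.09% of genes called higher and between 0% and 8.33% lower, against 7.97% and 4.75% of all tested genes. Of 12 T cell and intraepithelial lymphocyte genes 1 fell: Ccl25, the chemokine that small-intestinal epithelium makes to attract lymphocytes, at 209, 49.3 and 33.1 in the colon arrays, against 2751, 2165 and 2819 in the jejunum arrays. Colon 1 was above colon 2 and 3 and far below the jejunum (36.7-fold lower; adjusted p = 0.0291; 0.0338 and 63.4-fold lower without colon 1). Of 30 macrophage, dendritic cell and MHC class II genes Mrc1 and Cybb rose at least 2.24-fold and 1.97-fold and Lyz2 fell, and without colon 1 Fcgr3, an immunoglobulin receptor, rose too (2.96-fold; adjusted p = 0.0253). Of 11 mast cell genes Kit rose, and without colon 1 Cma1, a chymase, rose as well (3.78-fold; adjusted p = 0.0381). Of 29 interferon response genes Gbp2 and Gbp3, guanylate binding proteins, rose 2.86-fold and 2.56-fold, and Ifi35 and Ifi30 fell 3.54-fold and 1.89-fold. Adipocyte and liver markers, of tissues that a piece could carry, were called at 17.6% and 11.1% higher and 11.8% and 22.2% lower, above the shares of all tested genes, and their part in other differences was not tested. Pancreas acinar markers summed to 9219, 14869 and 28111 in colon 1, 2 and 3, against 14339.9, 20182 and 20197 in jejunum 1, 2 and 3, with 1 of 13 called lower, Pnliprp2 (5.39-fold). Much of these sums is Zg16, also on the goblet cell list, at 6559, 7143 and 8342 in colon, against 10501, 7774 and 10071 in jejunum. Some members moved together and others did not. Prss2 was at 4.3, 785 and 3255 in colon, against 8.6, 2316 and 957 in jejunum, lowest in colon 1 and jejunum 1. Rnase1, at 0.6, 114 and 574 in colon, against 3.7, 340 and 159 in jejunum, was lowest in the same arrays. So were Cel, Cela1, Cela2a, Ctrb1, Ctrl, Pnliprp1 and Sycn. Clps, Pla2g1b, Pnliprp2 and Zg16 were not. Clps was at 561, 386 and 1228 in colon, against 1648, 1075 and 2582 in jejunum, and at 11215 and 20761 in germ-free corpus 1 and 2. The part of pancreatic tissue in other differences was not tested. Of 17 adipocyte markers 3 rose (Pparg, Car3 and Lpl) and 2 fell (Lipe and Gpd1, which enterocytes also use). Of 9 liver markers Tat rose, and Serpina1b and Cps1, given above for citrulline synthesis, fell. Alb, albumin, was low in both regions, at 31.4, 49.5 and 43.7 in the colon arrays, against 35.8, 19.2 and 64.6 in the jejunum arrays. Lipe, Gpd1 and Serpina1b kept the call whichever of the 6 arrays was left out. Ifi35 lost it without jejunum 1 or 2. Pparg lost it without colon 1 or 2 or jejunum 3. Gbp3 lost it without colon 2 or jejunum 1 or 2. Ccl25, Cybb and Gbp2 lost it without colon 2 or 3 or jejunum 1 or 2. Pnliprp2 lost it without colon 1 or 2 or jejunum 1 or 2. Ifi30, Lpl and Tat lost it without colon 1, 2 or 3 or jejunum 1 or 2. Mrc1 lost it without colon 2 or 3 or jejunum 1, 2 or 3.

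The region labels were checked against their markers. All 15 jejunal enterocyte markers had a negative difference and 10 were called, and they summed to 7001, 2699 and 2184 in colon 1, 2 and 3, against 64126, 46168 and 53667 in jejunum 1, 2 and 3. All 6 colonocyte markers had a positive difference and 1 was called, Car1, and they summed to 12209, 11000.1 and 9969 in colon 1, 2 and 3, against 1681, 1524 and 1634 in jejunum 1, 2 and 3. In 21 libraries 15 jejunal markers were called lower and 5 colonocyte markers higher, against 511 lower and 878 higher of all 6650 tested genes. That fit leaves libraries out for their region markers, so the spread of such markers is lower there by construction. Colon 1 had the highest sum of the colon arrays on both lists. Its colonocyte sum of 12209 lay mostly with Car1 at 6818 and Mptx1 at 2744. On the other members, Hoxb13, Aqp8 and Car4, colon 1 was the lowest colon array, and on Hoxa13 it was level with colon 3. Car4 was at 2227, 3353 and 3901 in colon 1, 2 and 3. The brightness of its jejunal markers lay mostly with Fabp2, at 4005 of a sum of 7001. Fabp2 and Hoxb13 are the markers that singled colon 1 out, so its place on them is by construction.

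**Figure D3:**
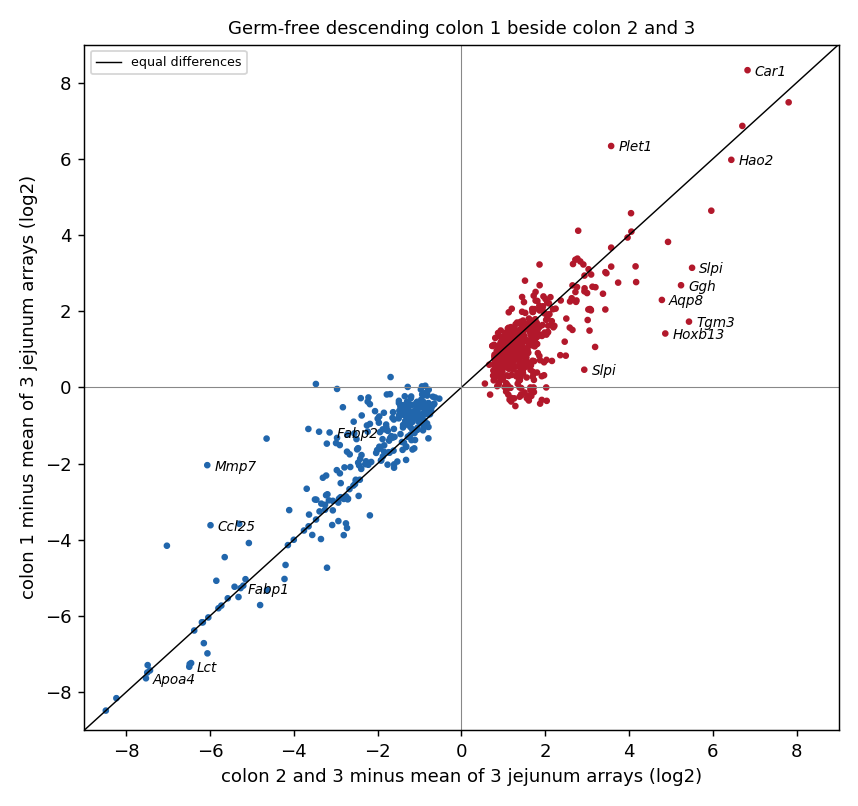
Log2 difference of colon 1 from the mean of the 3 jejunum arrays (vertical) against that of colon 2 and 3 (horizontal), for the 756 probe sets called without colon 1 and for Hoxb13, Fabp2 and Aqp8. Hoxb13 and Fabp2 singled colon 1 out, so their places are by construction. Points follow the line of equal differences for Apoa4, Lct, Fabp1 and Hao2, while Tgm3, Ggh, Hoxb13, Mmp7 and Ccl25 lie nearer to 0 on the vertical axis than on the horizontal one.

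Germ-free descending colon 1 lay with the other colon arrays on most probe sets and apart from them on some. Its log2 signals correlated over tested probe sets with r = 0.932 with colon 2 and 0.885 with colon 3, against 0.952 between colon 2 and 3, and 0.848 to 0.861 with the jejunum arrays. Its highest correlations were with germ-free rectum 1 and 2 (0.954 and 0.945) and conventional colon 2 (0.941), above those with its own group. These are correlations across probe sets, which share probe brightness. Median signals of germ-free rectum 1 and 2 and conventional colon 2 were 78.6, 82.8 and 82.2. That of colon 1 was 79.8, against 94.0 and 103.7 in colon 2 and 3. Germ-free rectum 1 also held gastric Atp4a, at 1968. The part of array brightness in this order was not tested. Of the 447 probe sets called higher without colon 1, its value was above all 3 jejunum arrays for 380 (85.0%), and of the 309 called lower it was below all 3 for 279 (90.3%). On a scale from 0 at the jejunum mean to 1 at the mean of colon 2 and 3, its median place was 0.806 among the first and 0.754 among the second. These probe sets were picked on colon 2 and 3, so values under 1 arise in part by construction. For 106 of the 447 and 75 of the 309 its place was under 0.5.

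Among 8540 probe sets on which colon 2 and 3 agreed within 2-fold, colon 1 was over 4-fold above their mean on 33 and over 4-fold below it on 96. Colon 1 was also the dimmest colon array, with a median signal of 79.8 against 94.0 and 103.7. Some of those below were dim, such as 1 probe set of Bmp2, at 12.5, 96.5 and 160.8 in colon, against 22.7, 10.9 and 99.1 in jejunum. The part of array brightness in these counts was not tested. The genes that follow were chosen after their values were seen. Low in colon 1 were Hoxb13, by which it was singled out, Tgm3, Ggh and Aqp8, given above, and Ly6g. Ly6g was at 62, 836 and 1023 in the colon arrays, against 44.8, 41.7 and 46.7 in the jejunum arrays. High in colon 1 were B4galnt2, a glycosyltransferase, at 1301, 110.5 and 83.5 in the colon arrays, against 2197, 1676 and 1419.7 in the jejunum arrays, Slc51a, a subunit of the bile acid exporter, at 1012, 131 and 95.5 in the colon arrays, against 1486, 3251 and 2820.3 in the jejunum arrays, and Cck, cholecystokinin, at 749, 116 and 77.1 in the colon arrays, against 322, 246 and 107 in the jejunum arrays. For B4galnt2 and Slc51a colon 1 lay near the lowest jejunum array, and for Cck it lay above all of them. Cldn2, a leaky claudin, was at 290.3, 30.7 and 16.2 in the colon arrays, against 21.7, 185 and 24.1 in the jejunum arrays, and Ces1g, a carboxylesterase, at 328, 21.3 and 30.9 in the colon arrays, against 40.1, 98.6 and 64.5 in the jejunum arrays. On both, colon 1 exceeded every other array of the 6. At the same time Apoa4, Lct and Fabp1 were at 43.5, 20.8 and 4 in colon 1, close to those of colon 2 and 3, and Car1 was at 6818, the highest of the colon arrays. The origin of these levels was not tested. Leaving colon 1 out raises Hoxb13 and lowers Fabp2 in the colon by construction.

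**Figure D4:**
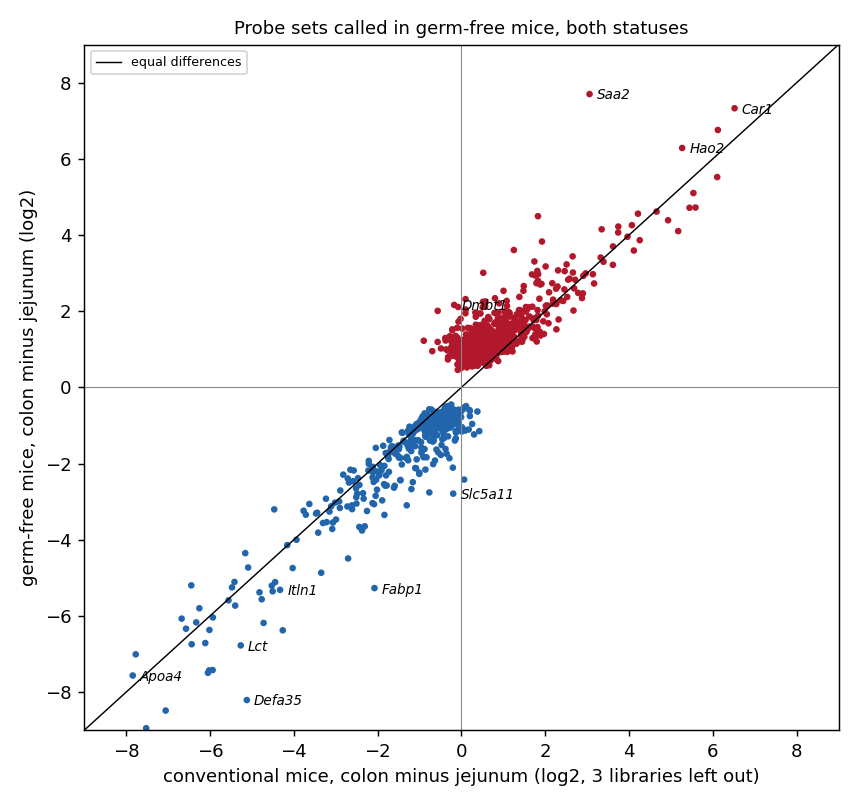
Log2 difference, colon minus jejunum, in germ-free mice (vertical) against conventional mice without the 3 libraries whose markers oppose their labels (horizontal), for the 1068 probe sets called in germ-free mice. Of the points 980 lie in the quadrants of equal sign, Slc5a11 lies near 0 in conventional mice, and Fabp1, Defa35 and Saa2 differ less there.

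The region difference was then set beside that of conventional mice, whose 6 arrays share no sample with the germ-free ones. Of the 1068 probe sets called in germ-free mice 968 (90.6%) had the same sign in conventional mice, against 66.5% of all tested probe sets. The library labelled conventional jejunum 3 had Hoxb13 at 1626 and Fabp1 at 1.5, and without it the shares were 91.8% and 67.3%. Across probe sets the differences correlated with r = 0.726, or 0.759 without that library, given as a description, since probe sets are not independent.

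The difference between the regional differences was tested in limma as an interaction, which called 1 probe set of 9033 (0.0111%), with 667 at an unadjusted p under 0.05. It was Slc5a11, a cotransporter of sodium and myo-inositol. Its signals were 10.8, 18.6 and 24.6 in germ-free colon, against 202, 97.3 and 185 in germ-free jejunum. They were 22.4, 16.7 and 21.5 in conventional colon, against 28.4, 21.7 and 19.4 in conventional jejunum. The germ-free jejunum thus stood above the other 3 groups, which overlapped. The regional difference was -2.79 ± 0.29 in germ-free mice (adjusted p = 6.62e-05) and -0.12 in conventional mice, and the interaction was -2.67 ± 0.41 (adjusted p = 0.0254). Without the 3 libraries and colon 1 it was -2.56 (adjusted p = 0.081) and 0 probe sets were called, with 997 at an unadjusted p under 0.05. Fabp1 was among the 8 probe sets of lowest p: the regional difference was -5.27 ± 0.68 in germ-free mice and -1.38 in conventional mice, with signals of 3.2, 1.5 and 3.5 in conventional colon and 224, 35.6 and 1.5 in conventional jejunum, and the interaction did not pass (adjusted p = 0.653). The -1.38 counts as jejunum the library labelled conventional jejunum 3, at 1.5, whose markers oppose its label. Ckap4, a protein of the endoplasmic reticulum, and Dmd, dystrophin, had interactions of 1.73 and 1.65 and did not pass (adjusted p = 0.23 and 0.556). The others of lowest p were Eif2s3y, Cast, Vhl and Wrn, and none passed.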

How the data were processed

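Total RNA of whole tissue was measured on 24 single-colour short-oligonucleotide arrays of 12488 probe sets. The deposited values are linear signal intensities, and the software, scaling and detection calls behind them are not given in the sources used here. The trimmed mean of the middle 96% was 200.101 to 200.138 on every array, so the authors' deposited intensities were kept without rescaling. The 66 control probe sets were left out, signals under 21.2 (the 25th percentile) were set to that floor, and the 9033 probe sets whose signal exceeded 51.5 (the 40th percentile) on 3 or more arrays were tested. Of these 8101 carried 1 gene, 304 several and 628 none in the platform annotation. On the array 10855 probe sets carried 1 gene, 10839 matched the reference by Entrez identifier and 0 symbols changed.

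Limma 3.58.1 in R 4.3.3 was fitted to log2 values with all 24 arrays in 8 groups and an intensity trend, with statmod 1.5.0 for random blocks, on 16 residual degrees of freedom. P-values were adjusted by Benjamini-Hochberg. The fit of all arrays was tested on simulated data, and it was repeated without germ-free descending colon 1. The number of arrays limits the precision. The genes named are the 12 largest called differences in each direction whose arrays did not overlap, in either fit, the 8 of lowest p for the difference between statuses, and from each list the called members and up to 6 of lowest p. Other members that did not pass were named after their values were seen. The comparison and the lists were chosen with earlier results of these data known. The alternatives were scaling, floor, filter, variance model, blocks and arrays left out.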

Additional observations from a re-analysis of the deposited data

Results flagged for a closer look

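The regional difference of Slc5a11, a cotransporter of sodium and myo-inositol, differed between germ-free and conventional mice by -2.67 on the log2 scale in limma (adjusted p = 0.0254; lower in 3 of 3 germ-free colon arrays than in every germ-free jejunum array). The test of that difference brought it here. Its 3 germ-free jejunum arrays were at 202, 97.3 and 185, against 28.4, 21.7 and 19.4 in the arrays labelled conventional jejunum. It was the 1 probe set of 9033 past the threshold, and it missed the threshold without the 3 libraries whose markers oppose their labels and germ-free descending colon 1 (adjusted p = 0.081).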

How the results depend on the processing

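The count of calls with all arrays was 1068 and stayed within 1.5 times that under quantile normalization (925), equal array medians (860), other floors (1066 and 994), an added constant of 50 (1047), no filter (922), a stricter filter (1048), no intensity trend (1010) and a fit of the 6 arrays alone (725). Array weights gave 3009 calls with all arrays and 2458 without colon 1, and leaving out the 3 libraries whose markers oppose their labels gave 1753 and 1809; the cause was not tested. Without colon 1 the split was 59.1% higher of 756 as deposited, 312 higher and 400 lower after quantile normalization, and 140 higher and 798 lower with equal medians. Leaving out single arrays gave 242 to 1425 calls with all arrays, lowest without jejunum 1 and highest without jejunum 3, and 1 to 1576 without colon 1, lowest without colon 3 and highest without jejunum 3, where a colon left with a single array was assumed to vary like the other groups. Leaving out colon 1 and jejunum 3 together, chosen after seeing the data, gave 1576 calls.

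The difference between statuses called 1 probe set. It called 0 with the floor at the 10th percentile, with the stricter filter, without the 3 libraries, with the fixed replicate block, and without germ-free descending colon 1 and conventional jejunum 3 together. It called 2 with the floor at the 40th percentile, 6 with no filter and 5 with array weights, and 0 to 40 when single arrays were left out, 40 without germ-free jejunum 3 (38 higher and 2 lower). The share with the same sign in conventional mice was 90.64%, and 81.09% with array weights, 88.68% with the fixed replicate block and 92.58% with conventional jejunum 3 left out; the causes were not tested.

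Equal replicate numbers were not shown to pair the arrays: deviations from the group means correlated at 0.22, -0.01 and 0.28 for pairs 1, 2 and 3, and colon 2 correlated best with jejunum 3. The replicate block gave 1360 calls as a fixed term and 1411 as a random one with all arrays, and 708 and 1030 without colon 1. Signals near the floor limit the folds of transcripts that one region lacks. For the genes named, over these settings, 2999 values with all arrays and 2551 without colon 1 kept direction and side of the threshold, 585 and 523 lost the call, 82 and 236 gained one, and 18 and 4 that were not called changed sign.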

Other observations

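Values follow for 4 sulfide and thiol enzymes, picked after their high colon values were seen, so they say nothing of such genes in general. Ethe1, a mitochondrial persulfide dioxygenase, was at 7494, 4911 and 5149 in the colon arrays, against 744, 965 and 696 in the jejunum arrays (7.24-fold higher; adjusted p = 0.00993 in limma; 0.0338 without colon 1). Sqor, the quinone oxidoreductase that takes up sulfide, was at 2159, 1515 and 1281 in the colon arrays, against 82.8, 399 and 286 in the jejunum arrays (7.63-fold higher; adjusted p = 0.0113 in limma; 0.0381 without colon 1). Selenbp1, a methanethiol oxidase, was at 3895, 2928 and 3900.0 in the colon arrays, against 237, 268 and 225 in the jejunum arrays, and Tst, a sulfurtransferase, at 615, 482 and 655 in the colon arrays, against 112, 109 and 121 in the jejunum arrays. The groups did not overlap for any of the 4 genes, and Selenbp1 (14.6-fold; adjusted p = 0.0222) and Tst (5.09-fold; adjusted p = 0.0268) missed the threshold without colon 1 (adjusted p = 0.0542 and 0.0611 in limma). Ethe1 kept the call whichever of the 6 arrays was left out. Sqor lost it without jejunum 1. Selenbp1 and Tst lost it without colon 1, 2 or 3 or jejunum 1 or 2.

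Annexins, membrane-binding proteins also picked after their values were seen, included genes called in each direction. Anxa1 was at 973, 1328 and 1261 in the colon arrays, against 104, 137 and 119 in the jejunum arrays on its brightest probe set, and its 3 probe sets were 9.85-fold, 15.5-fold and 10.9-fold higher. Anxa8 was at 146, 360.5 and 235 in the colon arrays, against 3, 22.9 and 17 in the jejunum arrays (10.6-fold higher; adjusted p = 0.00745 in limma). Anxa4 was at 923, 798 and 867 in the colon arrays, against 3749, 2802 and 2517 in the jejunum arrays and fell 3.46-fold (adjusted p = 0.00304 in limma; 0.0111 without colon 1). Anxa2 was at 3120.0, 3962 and 3007 in the colon arrays, against 5987, 6502 and 5549 in the jejunum arrays and fell 1.8-fold (adjusted p = 0.0242; 0.0647 without colon 1). Anxa6 rose 1.62-fold (adjusted p = 0.0307 in limma; 0.0639 without colon 1), and Anxa5, Anxa7 and Anxa10 were not called (adjusted p = 0.0803, 0.281 and 0.711). Anxa1, Anxa8 and Anxa4 kept the call whichever of the 6 arrays was left out. Anxa2 lost it without colon 1 or 3 or jejunum 1 or 2. Anxa6 lost it without colon 1, 2 or 3 or jejunum 1 or 3.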
